A study of Homo sapiens with 6 samples.

Results

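The proteasome subunit genes are the human protein-coding genes that encode the parts, activators, inhibitor and assembly chaperones of the proteasome, and they were chosen by gene symbol alone. The pattern matched 48 genes of the count table, and 43 of them, out of 19072 genes tested in all, had at least 10 counts summed over the 6 RNA-Seq libraries. The libraries came from MRC5 cells, an established line of human lung fibroblasts, kept for 24 h in conditioned medium (CM) from ATIIER:KRASV12 cells. These are alveolar epithelial type II cells that carry a KRASV12 switched on by 4-hydroxytamoxifen (4-OHT). The CM of 3 libraries was taken from control cultures of that line (control ATII CM), and the CM of the other 3 from cultures given 4-OHT (4-OHT ATII CM). MRC5 and the epithelial line are each a single line, and any 4-OHT carried over in the medium cannot be told apart from factors the epithelial cells released.

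The proteasome is the chamber in which cells break down proteins tagged with ubiquitin. Its barrel-shaped core is built of outer alpha rings (PSMA genes) and inner beta rings (PSMB genes), and PSMB5, PSMB6 and PSMB7 carry the cutting sites. A cap of ATPases (PSMC genes) and other subunits (PSMD genes) recognizes ubiquitin chains, removes them and unfolds the protein. In the immunoproteasome, which interferon signaling induces and which shapes peptides for MHC class I, PSMB8, PSMB9 and PSMB10 take the places of PSMB5, PSMB6 and PSMB7. PSME1 and PSME2 form the PA28 activator, an alternative to the cap. The comparison asks how the fibroblasts' mRNA for each of these parts differed between the 2 kinds of CM.

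Library totals ranged from 17691849 to 26389449 counts, and control ATII CM replicate 2 was the smallest. Its counts also differed more from the other control libraries (chi-square per degree of freedom of 5.27 and 6.03) than other replicate pairs did (2.12 to 3.10). All 8 fibroblast markers were well above the count filter, and they summed to between 36300 and 39600 CPM (read counts divided by TMM-adjusted library sizes). Most of that sum came from COL1A1 and COL1A2. At an edgeR adjusted p below 0.05, 3 of the 8 were higher and 1 was lower in 4-OHT ATII CM (2.95% and 2.76% of all genes). Of 10 epithelial markers 5 passed the filter, and these had a summed level of 91.3 to 97.7 CPM in control ATII CM and 89.6 to 95.7 CPM in 4-OHT ATII CM, nearly all of it from the keratins KRT8, KRT18 and KRT19, while NKX2-1 was at 0. Of 6 leukocyte markers only CD14 passed, at 0.562 to 0.896 CPM in control ATII CM and 1.05 to 1.86 CPM in 4-OHT ATII CM, a difference whose part in the results was not tested. With bulk RNA, fewer cells of a type and less RNA per cell cannot be told apart.

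Before any comparison, 5 of the 48 genes dropped out for lack of counts. PSMA8 and PSMB11, subunits of testis and thymus, had 0 and 2 counts over all libraries. PSMB3, an obligatory part of every beta ring, and the immunoproteasome subunits PSMB8 and PSMB9 had 0 counts in all 6 libraries. Each of these 3 has a copy on alternate contigs of the genome assembly that matches its transcript over the full length with at least 99.6% identity, PSMB3 (chromosome 17, 38752736 to 38764231 on GRCh38) on 1 contig and PSMB8 and PSMB9 (chromosome 6, within the MHC) on 7. No other member of the 48 has such a copy. Among all protein-coding genes, 57.3% of the 791 with an alternate copy had no count, against 18.6% of the 19040 without. A count of 0 allows up to 3 counts, or 0.114 to 0.170 CPM depending on the library, of reads assigned to the gene (counting error only). Whether reads of these 3 genes were lost to the alternate copies was not tested.

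A second kind of gap touched the alpha ring. PSMA2 had 381 counts and PSMA6 had 514 over all libraries, the lowest totals above the filter, while PSMA3, PSMA4, PSMA5 and PSMA7 had 11536 to 27255. Subunits of a ring are needed in equal number. In GENCODE release 44, 81.4% of the exon bases of the canonical PSMA6 transcript, 67.0% of those of PSMA1, 54.5% of those of PSMA2, 56.1% of those of PSMB10 and 44.8% of those of PSMD9 also belong to another gene on the same strand. No other tested member shared more than 0.126%. The pseudogene PSMA6P1 had a further 191 counts, 37.2% of its parent's total. How reads in shared exons were assigned is not given in the sources used here, and levels of these 5 genes are therefore uncertain. The strand setting is not given either, and 83.2% of the canonical exon bases of PSMC1 and 51.6% of those of PSMD7 overlap a gene on the opposite strand. PSMC6 and PSMD4 also have near-identical pseudogenes, with 315 and 183 counts.

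**Figure D1:**
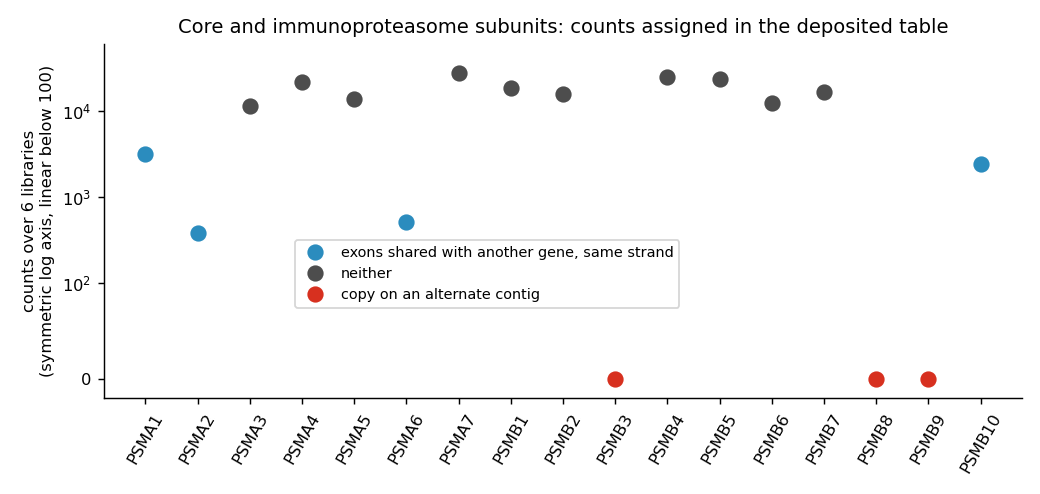
Counts assigned to each core and immunoproteasome subunit, summed over 6 libraries (symmetric log axis, linear below 100). PSMB3, PSMB8 and PSMB9, with copies on alternate contigs, sit at 0, and PSMA1, PSMA2, PSMA6 and PSMB10, which share exons with another gene, lie below the other subunits that have counts.

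Per kilobase of merged exons, PSMA7, PSMB5 and PSMB4 were the most abundant members, with mean levels over the 6 libraries of 116, 99.2 and 84.2 CPM per kb. The same 3 genes led per kilobase of the canonical transcript, at 211, 168 and 198 CPM per kb. The cap scaffold PSMD2 was at 55.4 CPM per kb of merged exons and the cap ATPase PSMC3 at 58.3. The immunoproteasome subunit PSMB10 was at 9.67, against 69.95 for its constitutive counterpart PSMB7. The order within the list depends on the length used: PSME2 ranked 20 with merged exons and 8 with canonical transcripts, and PSMD6 ranked 34 and 16.

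Differences between the kinds of CM were small. Of the 43 members tested with edgeR, 1 (PSME1) was a differentially expressed gene (DEG) at an adjusted p below 0.05, upregulated in 4-OHT ATII CM, and none was downregulated. Among all 19072 genes 5.72% were DEGs, 2.95% upregulated and 2.76% downregulated. Without adjustment 2 members were higher and 8 lower at p below 0.05, where 8.72% and 8.61% of all genes were. DESeq2 and limma-voom each called PSME1 higher and PSME4 and PSMD2 lower. Of all genes DESeq2 called 5.0%, 2.55% higher and 2.45% lower, and limma-voom called 5.94%, 3.04% higher and 2.89% lower. The members' median log2 fold change was -0.050, against -0.0020 over all genes tested. In 34 of 43 members the log2 fold change was negative, as it was in 50.5% of all genes.

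**Figure D2:**
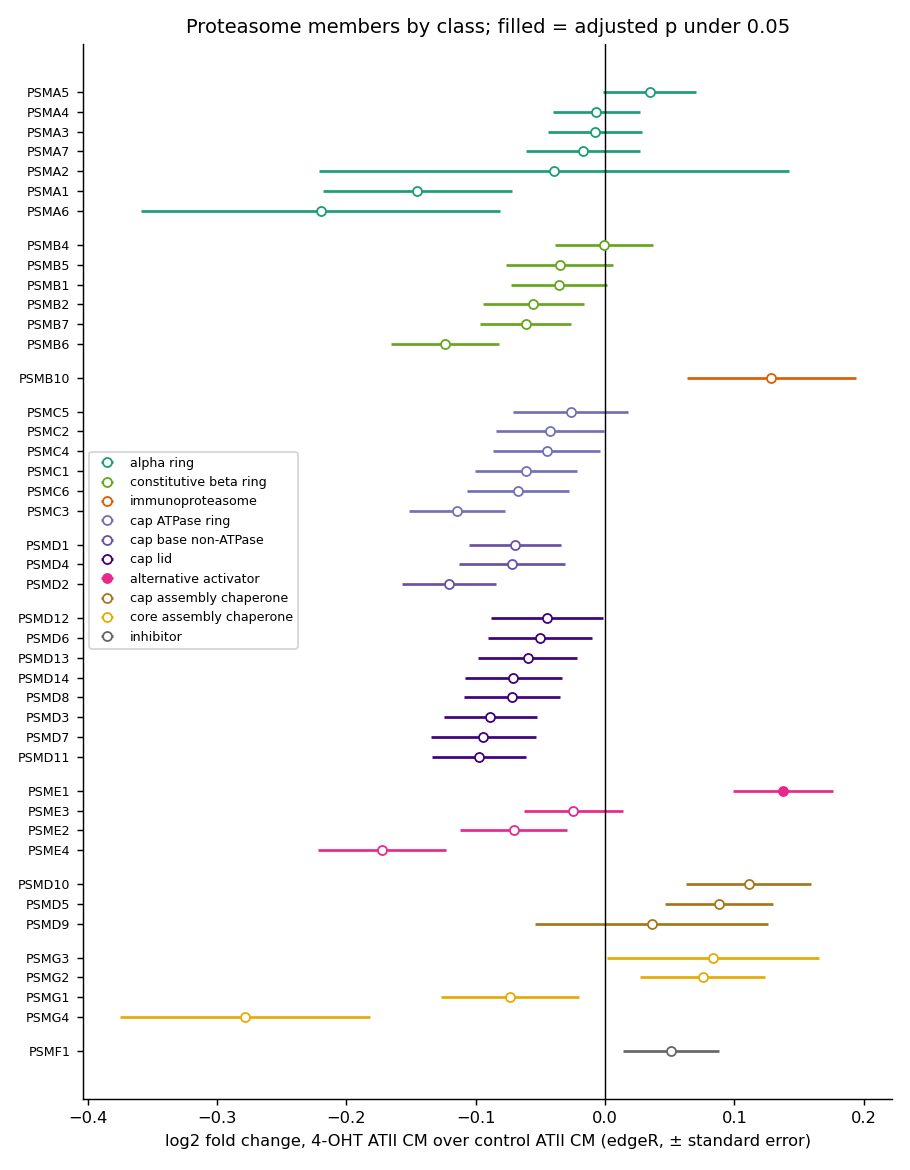
Log2 fold change of 43 proteasome members (4-OHT ATII CM over control ATII CM, edgeR, bars are standard errors), grouped by class, with filled points for an adjusted p below 0.05. All 17 cap subunits lie left of 0, the cap assembly chaperones lie right of it, and PSME1 is the filled point.

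All 17 tested cap subunits, namely the 6 ATPases PSMC1 to PSMC6, the scaffolds PSMD1 and PSMD2, the ubiquitin receptor PSMD4 and the 8 lid subunits, had a negative log2 fold change, from -0.12 to -0.027 with a median of -0.070. None was a DEG. In 9 of the 17 all 3 libraries of 4-OHT ATII CM lay below all 3 of control ATII CM, whereas the groups were separate in this direction in 10.4% of all genes and in 13.5% of the 9202 genes with a mean of at least 10 CPM. Each cap subunit had its lowest value in a 4-OHT library, and 13 of the 17 had their highest value in control ATII CM replicate 2. Without that library the median was -0.043. The 17 genes were measured in the same libraries and are not independent of each other.

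PSMD2 (Rpn1, the scaffold that docks ubiquitin-binding factors) was the most highly counted member and had the lowest log2 fold change of the cap. Its levels were 312, 325 and 306 CPM in control ATII CM and 297, 278 and 293 CPM in 4-OHT ATII CM. The groups did not overlap, and the edgeR fit gave a log2 fold change of -0.12 with an SE (standard error) of 0.0361 and an adjusted p of 0.0651. DESeq2 gave 0.0388, the lowest of the 15 alternatives, whose highest was 0.271, and the adjusted p was below 0.05 in 4 of them, none of them with a library left out. PSMC3, an ATPase of the ring that threads proteins into the core, was at 136, 143 and 135 CPM in control ATII CM and 129, 126 and 127 CPM in 4-OHT ATII CM. These groups were also separate, with a log2 fold change of -0.11 (SE 0.0371, adjusted p = 0.0920). PSMD11, a lid subunit that helps hold the cap on the core, followed at 109, 106 and 111 CPM against 102, 103 and 101 CPM (log2 fold change -0.097, adjusted p = 0.157).

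At the other end of the cap, values of the groups overlapped. PSMC5, an ATPase whose exons overlap FTSJ3 on the opposite strand, was at 81.6, 87.3 and 84.0 CPM in control ATII CM and 82.8, 78.4 and 86.9 CPM in 4-OHT ATII CM. This gave a log2 fold change of -0.027, and 0.0091 without 4-OHT ATII CM replicate 2. The lid subunit PSMD12 was at 56.5, 58.0 and 57.1 CPM against 57.9, 52.7 and 55.7 CPM, with a log2 fold change of -0.045, and -0.011 without 4-OHT ATII CM replicate 2. PSMD1, the larger scaffold of the base, was separate at 155, 156 and 150 CPM against 144, 146 and 149 CPM, with a log2 fold change of -0.070 (adjusted p = 0.333). The other cap members that were separate between groups were PSMC6, PSMD3, PSMD7, PSMD8 and PSMD14, the last of which is the deubiquitinase that strips ubiquitin from the substrate. Their adjusted p ranged from 0.201 for PSMD3 to 0.422 for PSMC6.

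Promoter sequence around the RefSeq start was found for 42 of the 48 members (GRCh38.p14, 250 bases before the start to 50 after). Motifs were chosen after the values were seen and searched on both strands, and matches of different motifs may overlap. The ETS core, CCGGAAG, was found in 13 of 42 members (31.0%) and in 10.7% of all promoters. By block it was in 9 of 16 cap (56.25%), 0 of 10 core, 0 of 3 immunoproteasome, 1 of 4 activator and 2 of 7 assembly and regulation promoters. The testis subunit PSMA8 also had it. No promoter was found for the core subunits PSMA7, PSMB1, PSMB6 and PSMB7. Of the 9 cap genes with the ETS core, 4 had separate groups and 5 overlapping ones. Of the 7 without it 5 had separate groups and 2 overlapping ones. To show the element, 30 bases are given of PSMD7 and PSMD14, whose groups were separate, and of PSMC2 and PSMD12, whose groups overlapped, with the ETS core in capitals, read as CTTCCGG on the reverse strand.
PSMD7 (chr16:74296801-74296830, plus strand): gggctgacgaaCCGGAAGaagaggaactgg
PSMD14 (chr2:161308410-161308439, plus strand): aactagtgaacCCGGAAGtgcttcgcggcg
PSMC2 (chr7:103347641-103347670, plus strand): ggaagacaccaCCGGAAGcaaggaaggtgc
PSMD12 (chr17:67366567-67366596, minus strand): tgcgcgggcaaCTTCCGGtgtgggtgacga

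Core subunits had negative values for the most part, with a median closer to 0 than that of the cap. PSMA6, PSMA1 and PSMB6 were nevertheless lower than any cap subunit (-0.220, -0.145 and -0.124, against -0.121 for PSMD2). Of 13 tested core subunits 12 had a negative log2 fold change, against 50.5% of all genes, and the median was -0.035, or -0.015 once control replicate 2 was dropped. In 3 (PSMA6, PSMB6 and PSMB7) the 4-OHT libraries lay below all control libraries, against 10.4% of all genes and 13.5% of genes averaging 10 CPM or more. Without PSMA1, PSMA2 and PSMA6, whose exons are shared, 9 of 10 were negative with a median of -0.026. PSMA5 was the 1 core subunit above 0, at 99.1, 102 and 100.1 CPM in control ATII CM and 102, 104 and 102 CPM in 4-OHT ATII CM (log2 fold change 0.035, adjusted p = 0.700). Its value was 0.022 once 4-OHT replicate 2 was dropped and 0.0054 with the GC and length correction. PSMA6 had the lowest log2 fold change of the alpha ring, -0.22, at 3.98, 4.03 and 4.32 CPM against 3.15, 3.85 and 3.58 CPM (SE 0.139, adjusted p = 0.469), on 69 to 98 counts a library. Dropping 4-OHT replicate 1 moved it to -0.14. The mean log2 CPM of the cap minus that of these 10 core subunits was -0.34, -0.36 and -0.38 in control ATII CM against -0.38, -0.43 and -0.40 in 4-OHT ATII CM, a difference of -0.040 given without a test. With all 13 core subunits the groups overlapped and the difference was -0.015, and it was 0.0092 without 4-OHT ATII CM replicate 2.

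**Figure D3:**
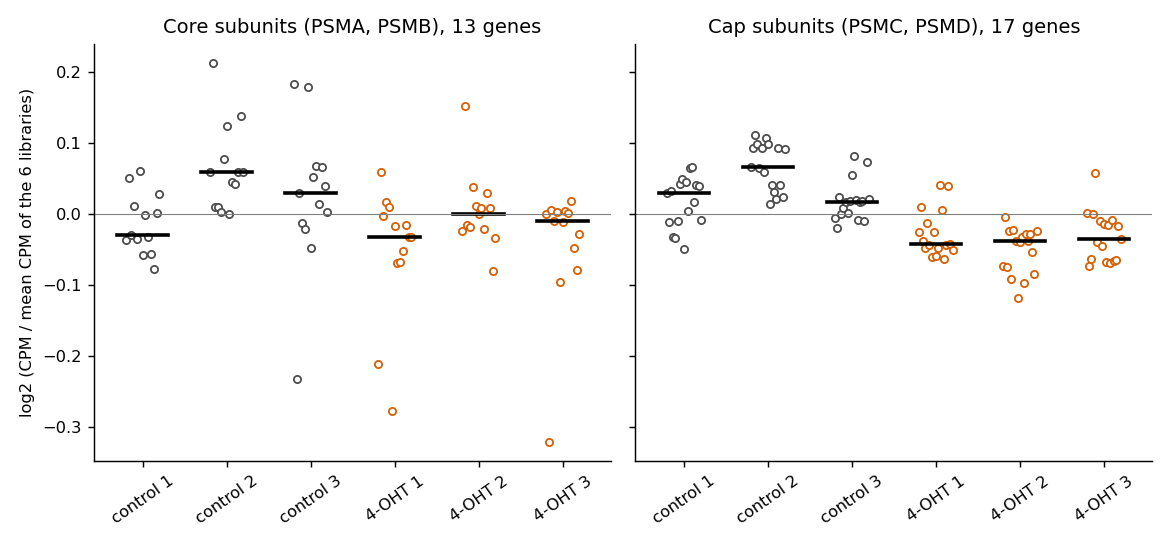
Each point is 1 gene's log2 ratio of its CPM in a library to its mean CPM over the 6 libraries, and black lines are medians over the genes. Cap medians lie above 0 in the 3 control libraries, highest in control ATII CM replicate 2, and below 0 in the 3 libraries of 4-OHT ATII CM, while the core shows more overlap.

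Among the cutting subunits, PSMB6 (caspase-like site) had the lowest log2 fold change of the beta ring. It was at 93.6, 103 and 96.0 CPM in control ATII CM and 91.4, 88.4 and 88.5 CPM in 4-OHT ATII CM. These groups were separate, with a log2 fold change of -0.12 (SE 0.0416, adjusted p = 0.107). PSMB7 (trypsin-like site) was at 128, 130 and 125 CPM against 122, 122 and 123 CPM, also separate, with a log2 fold change of -0.061 (adjusted p = 0.414). For PSMB5 (chymotrypsin-like site) the values overlapped, at 166, 182 and 183 CPM against 173, 176 and 169 CPM (log2 fold change -0.035, adjusted p = 0.743). Dropping control replicate 1 moved the PSMB5 value to -0.083, and dropping control replicate 2 moved it to -0.015. PSMB4, a beta subunit without a cutting site, was nearly level at 175, 187 and 184 CPM against 175, 186 and 184 CPM, and the sign of its log2 fold change of -0.00099 depended on the setting.

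The immunoproteasome could be followed through PSMB10 alone, since PSMB8 and PSMB9 had no counts. PSMB10 (chromosome 16, 67934502 to 67937087) was at 17.1, 17.2 and 17.0 CPM in control ATII CM and 18.2, 18.6 and 19.4 CPM in 4-OHT ATII CM. Every 4-OHT library lay above every control library, as in 11.7% of all genes and in 1558 of the 9202 genes averaging 10 CPM or more, but the log2 fold change of 0.13 did not pass the test (SE 0.0652, adjusted p = 0.334). The overlapping gene ENSG00000261884 had 145 counts in all against 2429 for PSMB10. Within each library, the log2 ratio of PSMB10 to PSMB7 counts per kb was -2.95, -2.97 and -2.93 in control ATII CM against -2.80, -2.77 and -2.715 in 4-OHT ATII CM. The difference was 0.19, and the exact permutation test (two-sided) gave p = 0.1, the lowest value open to 3 libraries against 3. The ratios of PSMB8 to PSMB5 and PSMB9 to PSMB6 could not be formed, so no p was adjusted over the ratios.

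PSME1, the PA28 alpha subunit (chromosome 14, 24136158 to 24138967), was the DEG of the family. Its levels were 119, 121 and 117 CPM in control ATII CM and 131, 136 and 126 CPM in 4-OHT ATII CM, so the groups did not overlap. The mean rose from 119 ± 1.62 CPM (SD, n = 3) to 131 ± 5.12 CPM (SD, n = 3), or by 0.14 on the log2 scale (SE 0.0386), with an edgeR adjusted p of 0.0484. This result sits at the threshold: with other scaling factors, RLE or upper-quartile, the adjusted p was 0.0539 and 0.0530, and leaving out any library but control ATII CM replicate 2 lifted it above 0.05, to between 0.0580 and 0.242. PSME2, the PA28 beta subunit and a near neighbor on chromosome 14 (24143362 to 24147570), had values that overlapped, at 81.4, 87.0 and 84.8 CPM against 79.2, 83.6 and 78.2 CPM (log2 fold change -0.071, adjusted p = 0.424). The log2 ratio of PSME1 to PSME2 counts per kb, a pair chosen after the values were seen, was 1.56, 1.48 and 1.48 in control ATII CM against 1.74, 1.71 and 1.69 in 4-OHT ATII CM (difference 0.21, given without a test).

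The core of the interferon response element, GAAA, any 2 bases and GAAA, was found in 6 of 42 members (14.3%) and in 3.65% of all 27305 promoters. By block it was in 2 of 10 core, 0 of 16 cap, 1 of 3 immunoproteasome (PSMB10, not PSMB8 or PSMB9), 2 of 4 activator and 1 of 7 assembly and regulation promoters. PSME1, PSME2, PSMB10 and PSMG4 held the same 10 letters, on the reverse strand in PSME1, and are shown because they include the DEG and its partner. The core subunits PSMA4 and PSMB4 held other letters at the 2 free bases. Capitals mark the element, the PSME1 stretch spans the start, and the others are the 100 bases before it.
PSME1 (chr14:24136189-24136218, plus strand): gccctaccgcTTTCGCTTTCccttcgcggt
PSME2 (chr14:24146611-24146710, minus strand): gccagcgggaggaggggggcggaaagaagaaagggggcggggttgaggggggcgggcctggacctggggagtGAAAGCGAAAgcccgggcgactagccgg
PSMB10 (chr16:67936851-67936950, minus strand): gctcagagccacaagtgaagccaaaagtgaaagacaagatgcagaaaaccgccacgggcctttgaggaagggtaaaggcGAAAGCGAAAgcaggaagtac
PSMG4 (chr6:3258847-3258946, plus strand): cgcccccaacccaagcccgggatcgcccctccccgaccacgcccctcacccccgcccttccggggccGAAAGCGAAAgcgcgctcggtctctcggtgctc

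The log2 fold changes of these 4 genes had both signs, with 0.14 for PSME1, 0.13 for PSMB10, -0.071 for PSME2 and -0.28 for PSMG4, and those of PSMA4 and PSMB4 were -0.0070 and -0.00099. The antioxidant response element core, TGACNNNGC, which NRF1 and NRF2 bind, was found in 13 of 42 members (31.0%) and in 13.6% of all promoters. By block it was in 4 of 16 cap, 1 of 10 core, 1 of 3 immunoproteasome (PSMB9), 3 of 4 activator (PSME1, PSME2 and PSME4) and 4 of 7 assembly and regulation promoters. The CCAAT box was in 45.2% of members against 35.7% of all promoters, the GC box GGGCGG in 66.7% against 44.6%, and the TATA box TATAAA in 11.9% against 11.95%. A match of letters is a description and does not show that a factor binds there.

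The other activators had lower means in 4-OHT ATII CM. PSME4, which encodes the large nuclear activator PA200, was at 102, 88.8 and 102 CPM in control ATII CM and 89.0, 84.2 and 86.5 CPM in 4-OHT ATII CM. Control replicate 2 lay among the 4-OHT libraries. The log2 fold change of -0.17 (SE 0.0494) had an edgeR adjusted p of 0.0533. The adjusted p was below 0.05 in 10 of 15 alternatives, and without control ATII CM replicate 2 it was 0.000294 with a log2 fold change of -0.23. Leaving out any other library gave 0.0879 to 0.213. PSME3, the PA28 gamma activator of the nucleus, overlapped between groups at 141, 141 and 134 CPM against 137, 132 and 140 CPM (log2 fold change -0.024, adjusted p = 0.816), with -0.055 to -0.0037 when 1 library was left out.

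**Figure D4:**
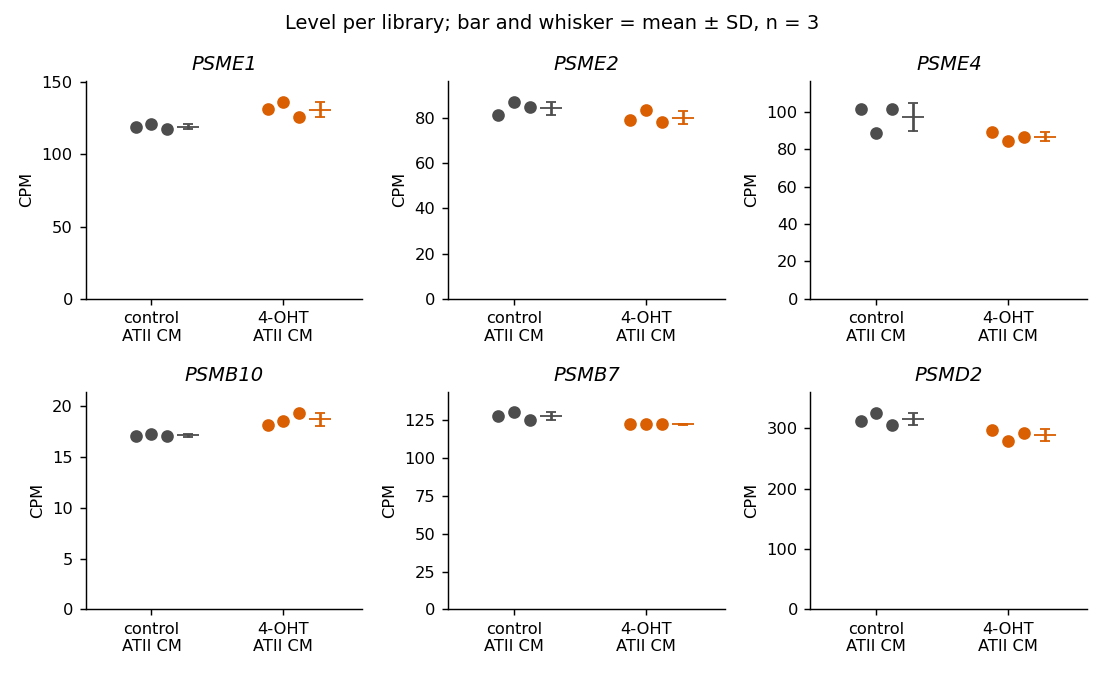
CPM of 6 members in each library, with mean ± SD (n = 3) beside the points and axes that start at 0. PSME1 and PSMB10 are higher in every 4-OHT library, PSMB7 and PSMD2 are lower in every one, and for PSME2 and PSME4 the groups overlap.

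Assembly chaperones and the inhibitor, which are not part of the finished particle, had log2 fold changes of both signs. The 3 chaperones of the cap, PSMD5, PSMD9 and PSMD10, all had positive log2 fold changes with a median of 0.088, and none passed the test. That of PSMD9 turned to -0.017 without 4-OHT ATII CM replicate 2. PSMD10 (gankyrin) had the highest, 0.11, at 52.5, 57.1 and 53.7 CPM against 61.4, 55.0 and 59.8 CPM (adjusted p = 0.241), and PSMD9 the lowest, 0.036, at 9.84, 8.85 and 9.36 CPM against 9.32, 10.3 and 9.21 CPM. Of the 4 chaperones of the core, PSMG3 was highest at 0.083, with 17.0, 19.9 and 18.0 CPM against 17.5, 19.1 and 21.2 CPM, and its exons overlap PSMG3-AS1 on the opposite strand. Leaving out 1 library moved the PSMG3 value to between 0.0056 (without 4-OHT ATII CM replicate 3) and 0.15 (without 4-OHT ATII CM replicate 1). PSMG4, whose exons overlap SLC22A23 and TUBB2B on the opposite strand, had the most negative log2 fold change of all members, -0.28 (SE 0.0968, adjusted p = 0.123). The adjusted p was below 0.05 in 2 of 15 alternatives, at 0.0357 with no filter and 0.0447 once control replicate 3 was dropped. It was at 16.6, 15.8 and 13.3 CPM in control ATII CM and 12.7, 13.8 and 11.2 CPM in 4-OHT ATII CM, with overlap between the groups. PSMF1, the inhibitor PI31, was at 100.3, 98.6 and 96.3 CPM against 104, 102 and 100 CPM (log2 fold change 0.051, adjusted p = 0.542), and the value was 0.029 once control replicate 3 was dropped.

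Of 26 genes that work with the proteasome or supply ubiquitin, all tested, 1 was upregulated and 1 was downregulated, where 2.95% and 2.76% of all genes were, and the median log2 fold change was -0.022. NFE2L2 (NRF2, a transcription factor of the antioxidant response) rose from 251, 252 and 254 CPM to 290, 279 and 285 CPM, a log2 fold change of 0.17 (SE 0.0318, adjusted p = 0.00410), and stayed a DEG in all 15 alternatives. NFE2L1 (NRF1), the factor known to drive proteasome genes when the proteasome is inhibited, was not called, at 335, 334 and 343 CPM against 334, 332 and 341 CPM (log2 fold change -0.0075, adjusted p = 0.942). USP14, a deubiquitinase that sits on the cap, fell from 89.8, 87.6 and 88.2 CPM to 81.3, 79.8 and 80.4 CPM, which is -0.14 on the log2 scale (SE 0.0361, adjusted p = 0.0342). USP14 was a DEG in 8 of 15 alternatives and in 1 of the 6 that left out a library, the one without control ATII CM replicate 2.

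Of 15 genes of class I antigen processing, the pathway that uses immunoproteasome products, 13 were tested, 3 were upregulated and none was downregulated (2.95% and 2.76% of all genes), with a median log2 fold change of 0.13. IRF1, a transcription factor downstream of interferon, rose from 54.8, 52.9 and 51.4 CPM to 61.1, 64.9 and 66.6 CPM (log2 fold change 0.28, SE 0.0438, adjusted p = 0.00110). HLA-C, a chain that presents peptides, rose from 202, 197 and 203 CPM to 218, 227 and 243 CPM (log2 fold change 0.19, SE 0.0401, adjusted p = 0.00868), with an adjusted p of 0.0787 without 4-OHT ATII CM replicate 3. IRF1 stayed a DEG in all 15 alternatives. TAP1 and TAPBP, also of this pathway, had 0 and 3 counts in all and could not be followed.

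**Figure D5:**
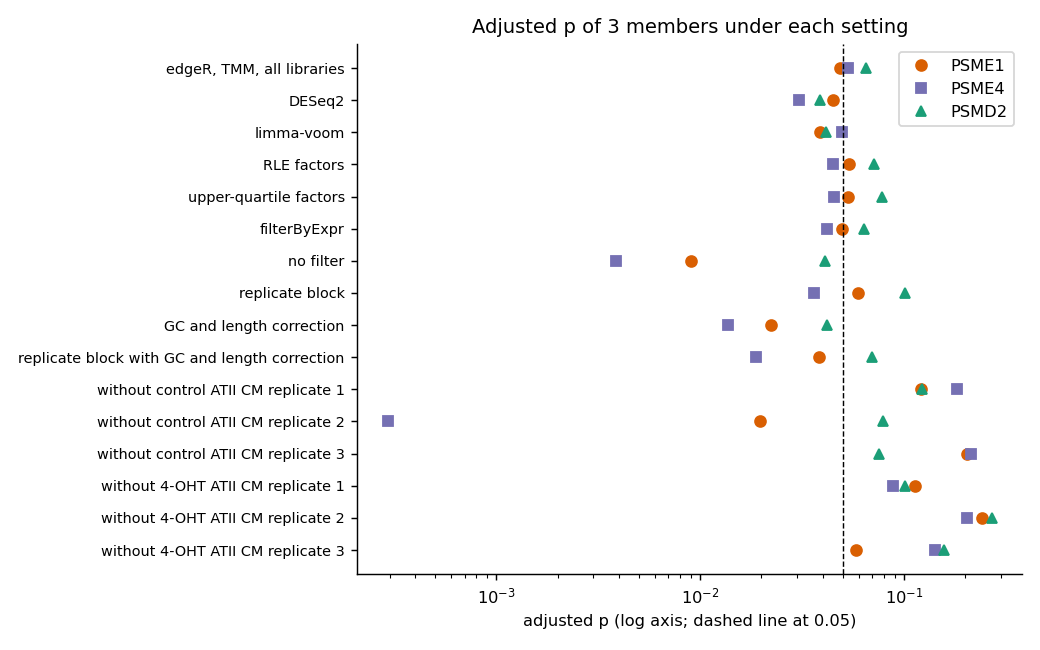
Adjusted p (log axis, dashed line at 0.05) of PSME1, PSME4 and PSMD2 under each test, scaling, filter, block, correction and set of libraries. In the edgeR test with all libraries PSME1 is at 0.0484 and PSME4 at 0.0533, and both cross the line under other settings.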

How the data were processed

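RNA-Seq counts of MRC5 cells in control ATII CM (n = 3) and 4-OHT ATII CM (n = 3) were analysed, with groups from the sample labels. The deposited values are raw counts per gene, which the authors obtained with featureCounts 1.6.5 after Trim Galore and alignment by HISAT2 2.1.0 (build GRCh38). Annotation release, strand setting and treatment of multi-mapping reads are not given in the sources used here. Merged exon lengths come from the same table, and 45 identifiers listed on X and Y were added. Names came from GENCODE release 44.

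Genes with at least 10 counts over all libraries entered the quasi-likelihood test of edgeR 4.0.16 under R 4.3.3, with TMM factors, group as the only term, Benjamini-Hochberg adjustment over all 19072 genes and a threshold of 0.05. Standard errors were derived from the fold change and F. CPM values use TMM library sizes. On simulated counts edgeR called 188 of 200 changed genes and 7 unchanged ones among 18713. Recovery at log2 fold changes as small as the members' median of -0.050 was not tested separately. Alternatives were DESeq2 1.42.0, limma-voom 3.58.1, other scaling and filters, a replicate block, a GC and length correction (splines of 5 degrees of freedom) and leaving out each library. The cap counts, the cap minus core difference, the PSME1 to PSME2 ratio and canonical transcript lengths were added after seeing the data. Copies on 261 alternate contigs were sought with minimap2 2.31 (90% coverage, 98% identity) for members and by 25-base words (70% found) for all protein-coding genes.

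The labels do not say that replicates were separate cultures, so p-values measure the spread between these libraries. Members were chosen by gene symbol alone, and members, gene lists, motifs and tests were all set with earlier results of these data known. Genes given with values per library are called members, the 6 cutting subunits, PSME1 to PSME4, the extremes of each class and called genes of the lists, and other genes were named after their values were seen. Some list genes are not reported here. Library totals of 17691849 to 26389449 counts set the counting precision, which is least for PSMA2 and PSMA6.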

Additional observations from a re-analysis of the deposited data

How the results depend on the processing

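With 1 library left out at a time, upregulated genes ranged from 289 to 696 and downregulated genes from 244 to 834 (563 and 527 with all), members called from 0 to 1 in each direction, partner genes called higher from 1 to 2 and lower from 0 to 3, antigen processing genes called higher from 2 to 3 and lower 0 throughout, the cap median from -0.085 to -0.043, the core median from -0.051 to -0.015, PSMB10 (the tested immunoproteasome subunit) from 0.099 to 0.15, and the PSMB10 to PSMB7 difference from 0.16 to 0.21. No filter gave 875 upregulated genes and 5 antigen processing genes called higher. Members called higher were 0 with RLE factors, upper-quartile factors and the replicate block. Members called lower, 0 in the edgeR test, were 2 with DESeq2, limma-voom and the GC and length correction, 3 with no filter, and 1 with RLE factors, upper-quartile factors, filterByExpr, the replicate block and the block with that correction. Partner genes called lower were 0 with DESeq2 and the replicate block. The sign turned for PSMB4 (0.00051 with limma-voom, 0.0080 with no filter, 0.00024 with the GC and length correction, 0.020 and 0.00037 without control ATII CM replicates 2 and 3, 0.028 without 4-OHT ATII CM replicate 1) and, without 4-OHT ATII CM replicate 2, for PSMC5 (0.0091), PSMD9 (-0.017) and cap minus core (0.0092), and the other end of the left-out range was -0.031, -0.068, 0.072 and -0.031 for these; the cause was not tested. Same-numbered libraries did not deviate together (correlations -0.014, -0.10 and -0.093), and differently numbered ones had correlations of -0.0645 to 0.161. With 3 libraries per group this cannot show whether cultures or media were paired, which the labels do not say. The replicate block gave 502 upregulated and 483 downregulated genes, with an adjusted p of 0.0593 for PSME1.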
